A study of Mus musculus with 21 samples.

Results

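Ighm encodes the constant region of the heavy chain of IgM, the first antibody class that a B cell makes, and the data here describe its transcripts in CD8 T cells. It is 1 of the 17516 gene symbols in the count tables and was followed by its symbol in all 21 libraries. The gene was chosen by its measured pattern. Its levels, its share of cells and its spread in these libraries were already known, as was its relation to Tcf7, cycling and Gzmb. All of these are therefore a description with no test. Transcripts were measured by single-cell RNA sequencing in mouse OT1 CD8 T cells, which carry 1 transgenic T cell receptor, and counted as UMIs (unique molecular identifiers, 1 for each captured transcript). After filtering, 106456 cells remained, with 3250 to 7105 in a library.

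One library held naive cells on day 0. All other cells were activated with beads coated with antibodies to CD3 and CD28. They were cultured without added cytokine to day 3 or day 5, or with IL-2, IL-2v (a mutant form of IL-2, written IL-2bg in the treatment labels) or IL-15 to day 3, 5 or 10. The doses were 5 and 50 IU/mL, called low and high here. For the 6 libraries of IL-2 and IL-15 at 50 IU/mL the treatment label names another interleukin number, and the titles and the series' design text were followed. The extraction protocol describes CD8 cells sorted from tumours, whereas the growth protocol describes bead culture. Each condition had 1 library, so no spread between replicates can be given and no condition can be tested on its own. No model over cytokine, dose and day was fitted, since the gene was chosen with its pattern known, and the day and the culture behind a library cannot be told apart from the condition. The labels do not say how many mice or cultures stand behind a library. The 95% intervals below cover counting error only. Samples of day 7 were not analysed here.

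In B cells the Ighm constant exons are transcribed together with a rearranged VDJ segment, and the protein forms the IgM receptor or is secreted. In the locus, an enhancer lies between the J segments and the constant exons, and germline transcripts that hold the constant exons without a functional VDJ segment have long been known in cells of the T lineage. Ighd, the constant gene of IgD, lies directly downstream on the same strand and is normally made by splicing from a transcript that runs through Ighm.

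In the GENCODE annotation of GRCm38, the assembly also called mm10, Ighm (ENSMUSG00000076617.9) is an immunoglobulin constant gene on chromosome 12, from base 113418558 to base 113422730 on the minus strand, 4173 bases in all. No other annotated gene overlaps it. Ighd starts 2233 bases downstream, and the nearest J segment, Ighj4, ends 5783 bases upstream. The annotation holds 2 transcripts, a membrane form of 6 exons (Ighm-202) and a secreted form of 4 exons (Ighm-201). They part within exon 4, which the membrane form leaves at a splice site and the secreted form reads on to a stop codon. The sequences below show the start of the first constant exon, which both forms share, and the place where the forms part. They come from the GENCODE transcripts and are written 5′ to 3′ on the minus strand. Capitals mark bases of only that form, and the lower case stretch before them is the end of the shared exon 4 (chr12:113420929-113420958).
first constant exon, chr12:113422671-113422730: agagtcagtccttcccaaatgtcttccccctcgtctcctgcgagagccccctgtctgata
secreted form, chr12:113420867-113420958: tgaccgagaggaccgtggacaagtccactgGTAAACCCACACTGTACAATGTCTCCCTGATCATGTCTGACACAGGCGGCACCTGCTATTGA
membrane form, next exon at chr12:113418953-113419068: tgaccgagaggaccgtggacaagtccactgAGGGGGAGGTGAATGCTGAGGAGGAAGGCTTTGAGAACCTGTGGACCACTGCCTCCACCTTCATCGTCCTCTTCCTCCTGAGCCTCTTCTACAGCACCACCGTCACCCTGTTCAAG
The secreted form has 62 such bases down to its stop codon TGA, and the membrane exon has 116. The tables give 1 count per gene symbol, so the values below sum both forms and do not tell whether a VDJ segment was joined to them.

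Ighm was present in every library, with 181170 UMIs in all and 748 to 16298 in a library of 10589950 to 32648496 UMIs. Its level is given as CPM, the Ighm UMIs scaled to a library of 1000000 UMIs. The naive library held 377.2 CPM (368.4 to 386.2). The beads without cytokine gave 644.2 CPM on day 3 and 392.8 CPM on day 5. So Ighm was higher 3 days into activation than in naive cells and was near the naive level on day 5.

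On day 3, low-dose IL-15 gave 738.7 CPM (727.4 to 750.2), the highest level of all, and high-dose IL-15 gave 680.3 CPM. Low-dose IL-2 and low-dose IL-2v gave 606.0 and 531.6 CPM. High-dose IL-2 and high-dose IL-2v gave 302.7 and 311.9 CPM. The day 3 libraries therefore fell into a high set, made of both IL-15 doses, the low doses of IL-2 and IL-2v and the beads alone, and a low pair, the high doses of IL-2 and IL-2v, which lay under the naive level.

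On day 5 the spread was narrower. IL-2 gave 454.0 CPM at the low and 363.3 CPM at the high dose, and IL-2v gave 403.9 and 277.1 CPM. IL-15 gave 388.9 CPM at the low and 455.9 CPM at the high dose, the only cytokine and day at which the high dose held more Ighm than the low dose.

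On day 10, low-dose IL-15 gave 385.4 CPM, close to the naive library. Low-dose IL-2, low-dose IL-2v and high-dose IL-15 gave 262.1, 253.9 and 236.5 CPM. High-dose IL-2v gave 95.9 CPM (92.3 to 99.7) and high-dose IL-2 gave 27.4 CPM (25.5 to 29.5), the lowest of the 21 libraries. The highest level was 26.9 times the lowest.

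**Figure D1:**
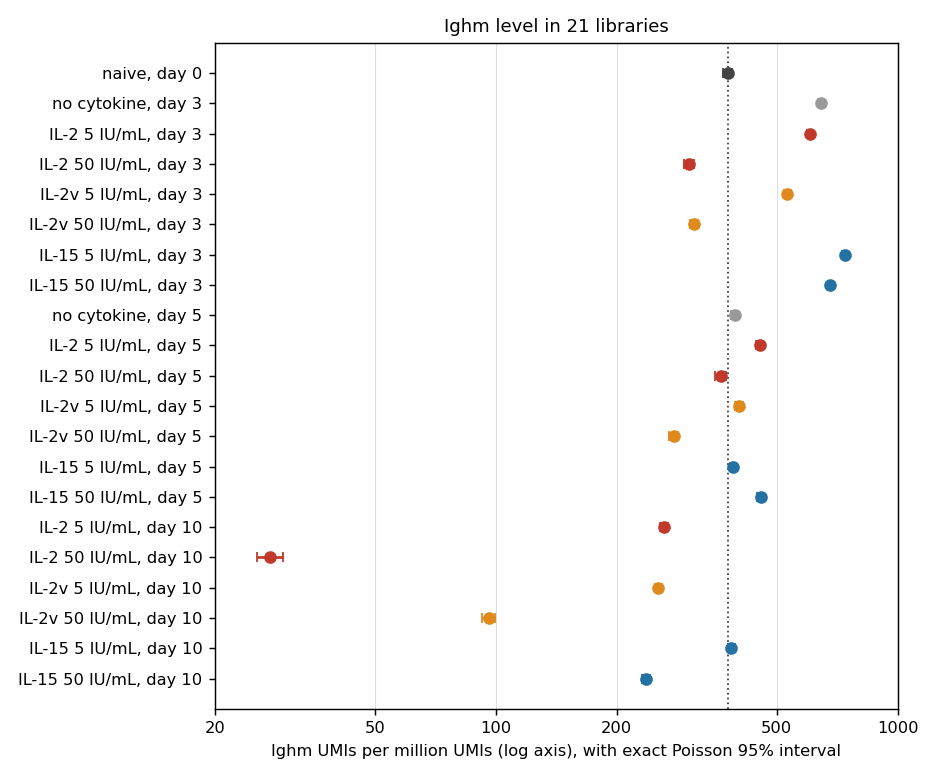
Ighm level (CPM, log axis) in each of the 21 libraries, coloured by cytokine, with exact Poisson 95% intervals that are often narrower than the point; the dotted line is the naive library. High-dose IL-2 on day 10 lies at 27.4 and high-dose IL-2v at 95.9, apart from the other libraries, which lie between 236.5 and 738.7.

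Ordered by level, 8 of the 20 pairs of neighbouring libraries had overlapping intervals. These were mainly in the middle of the order, where both day 5 IL-15 libraries, low-dose IL-2 and low-dose IL-2v on day 5, low-dose IL-15 on day 10, the beads alone on day 5 and the naive library lay between 377.2 and 455.9 CPM. In all, 11 libraries were above the naive library and 9 below it, and 10 to 12 were above it in the other settings tried.

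**Figure D2:**
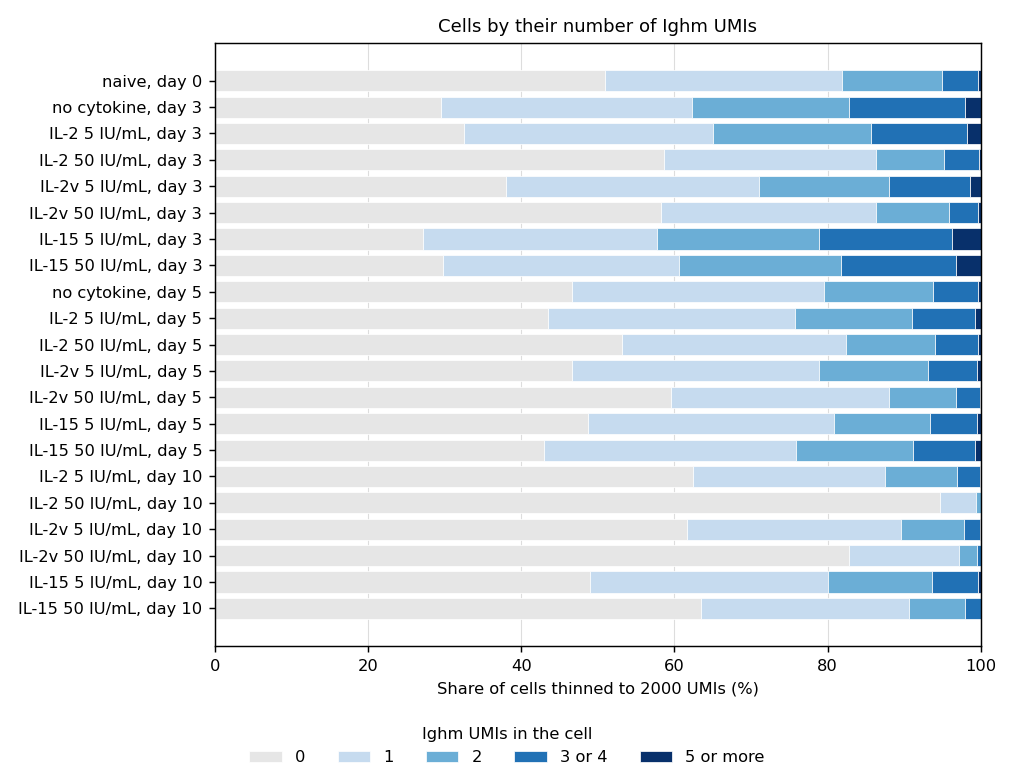
Share of cells (%) with 0, 1, 2, 3 or 4, and 5 or more Ighm UMIs in each library after every cell was thinned to 2000 UMIs. Cells with at least 1 Ighm UMI are 72.8% of low-dose IL-15 cells on day 3, 49.1% of naive cells and 5.39% of high-dose IL-2 cells on day 10.

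The transcripts were spread over many cells rather than held by a few. Each cell was thinned at random to 2000 UMIs, which left out the 57 to 393 shallower cells of a library, so that shares of cells can be compared. With this, 49.1% of naive cells (47.6 to 50.5, exact Clopper-Pearson interval) held an Ighm UMI, and the median over the 21 libraries was 51.1%. The share ran from 72.8% (71.5 to 74.1) in low-dose IL-15 on day 3 to 5.39% (4.76 to 6.08) in high-dose IL-2 on day 10, where 4.82% of cells held 1 UMI and 0.533% held 2. Without thinning the shares ran from 11.5% to 90.3%. High-dose IL-2v on day 10 stood between, with 17.2% of cells. No cell type that should lack Ighm was present in numbers that would measure free RNA in the droplets. A share as low as 5.39% in 1 library bounds such background in that library only.

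The share of cells with 5 or more Ighm UMIs depended on depth. At 2000 UMIs per cell, 3.81% of low-dose IL-15 cells on day 3 and 0.380% of naive cells held 5 or more, and none of the 4693 high-dose IL-2 cells of day 10 did. Over whole cells it was 28.3% in low-dose IL-15 on day 3, 4.42% in naive cells and 0.101% in high-dose IL-2 on day 10. The most Ighm UMIs in 1 whole cell was 21, and no single cell held over 0.936% of its library's Ighm UMIs. The variance of Ighm UMIs between thinned cells was 1.13 to 1.34 times their mean (median 1.22), where independent random draws at 1 rate would give a ratio of 1. Genes within 2-fold of Ighm's mean UMIs in the same library had median ratios of 1.02 to 1.15, below that of Ighm in 21 of 21 libraries. The share of those genes with a lower ratio than Ighm was 63.9% to 97.8% (median 86.4%). Cells without an Ighm UMI were 0.441 to 5.32 percentage points more frequent than a single Poisson rate would give (median 3.74 points). Ighm thus varied between cells of a library somewhat more than most genes of like abundance.

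Of the B cell genes that usually go with Ighm, some were at or near 0 and others were low but present in every library. Pax5, the factor that holds B cell identity, had 0 UMIs in all 21 libraries, and Ms4a1, which encodes CD20, had 1. The kappa light chain gene Igkc had 105 UMIs in all, 32 of them in the naive library and none in 11 libraries, and the lambda genes Iglc1, Iglc2 and Iglc3 had 6 together. Light chains came to 0.613 UMIs for every 1000 Ighm UMIs. Of the other heavy chain genes, Igha had 145 UMIs, Ighg3 had 31, and Ighv1-82, the one V segment with a UMI, had 3, all in high-dose IL-2 on day 10. Cd79a, a signalling chain of the B cell receptor, had 186 UMIs, while its partner Cd79b had 4840 and Cd72, an inhibitory B cell receptor, had 6678.

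Taken over the whole list of 22 B lineage genes other than Ighm, 19 had a UMI, and the summed level was 74.9 CPM in the naive library, 39.2 to 53.8 CPM in the cytokine libraries of day 3, 35.1 to 48.7 CPM on day 5 and 17.1 to 34.0 CPM on day 10. The 8 defining genes among them, which include Ms4a1, Pax5, Cd79a and Igkc, summed to 2.71 CPM in the naive library and 0.0733 to 1.48 CPM in the others. A UMI of at least 1 gene of the whole list was held by 8.51% to 23.1% of the cells of a library, with the naive library highest. Without these cells, and those with at least 2 myeloid or erythroid markers, the Ighm level of a library was 0.974 to 1.02 times as high. A UMI of any of the 8 defining genes, a subset set apart after the data were seen, was held by 268 cells (0.252%). Of the 72495 cells with an Ighm UMI, 72299 (99.7%) held none of them, and of the 8757 cells with 5 or more Ighm UMIs, 33 (0.377%) did. Without the 268 cells the Ighm level of a library was 0.998 to 1.001 times as high. The cells rich in Ighm carried the T cell receptor gene Cd3d in 91.3% to 100% of cases, against 90.5% to 99.0% of cells without Ighm. Outside the 8 defining genes, naive cells rich in Ighm also held Cd79b (9.48% against 4.92%) and Ighd (10.9% against 3.54%) more often. Not every library did so, with Cd79b at 1.09% against 1.53% in high-dose IL-2 on day 5. These shares were not thinned. The cells rich in Ighm were also deeper in 21 of 21 libraries, for example with a median of 4636 against 3416 UMIs per cell in the naive library.

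Ighd followed Ighm across the libraries, but at a ratio that changed. Ighd had 3637 UMIs in all. The naive library had 53.3 Ighd UMIs for every 1000 Ighm UMIs (47.8 to 59.1). On day 3 the libraries other than high-dose IL-2 had 19.1 to 21.4, and high-dose IL-2 had 8.81 (6.39 to 11.8). Without the cells that held a UMI of a defining B gene, the naive ratio was 53.1 and that of high-dose IL-2 on day 3 was 8.62. So the ratio was lower on day 3 than in naive cells in all 7 activated libraries, whether their Ighm level was above or below the naive one.

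On day 5, high-dose IL-15 had 32.7 Ighd UMIs per 1000 Ighm UMIs (29.3 to 36.4) and high-dose IL-2 had 8.32 (5.68 to 11.8), with the other libraries between 16.6 and 23.0. On day 10 low-dose IL-15 had 16.9, high-dose IL-15 14.3 and low-dose IL-2v 12.5. Low-dose IL-2 had 5.77 (4.20 to 7.72), high-dose IL-2v 5.73 (3.20 to 9.47) and high-dose IL-2 2.67, from 2 Ighd UMIs (0.323 to 9.69). The IL-2 libraries of days 3, 5 and 10 were low in this ratio at the high dose on each day, while low-dose IL-2 was low on day 10 only. Over the 13 libraries with enough cells, cells with an Ighd UMI had more Ighm than those without in 12. The median log2 difference was 0.21, with the interval above 0 in 4. Split by Cd79b instead, Ighm was higher in 10 and lower in 7 of 17 libraries. There the median was 0.08, with the interval above 0 in 1 and below 0 in 1. No share over all genes was computed for these splits.

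**Figure D3:**
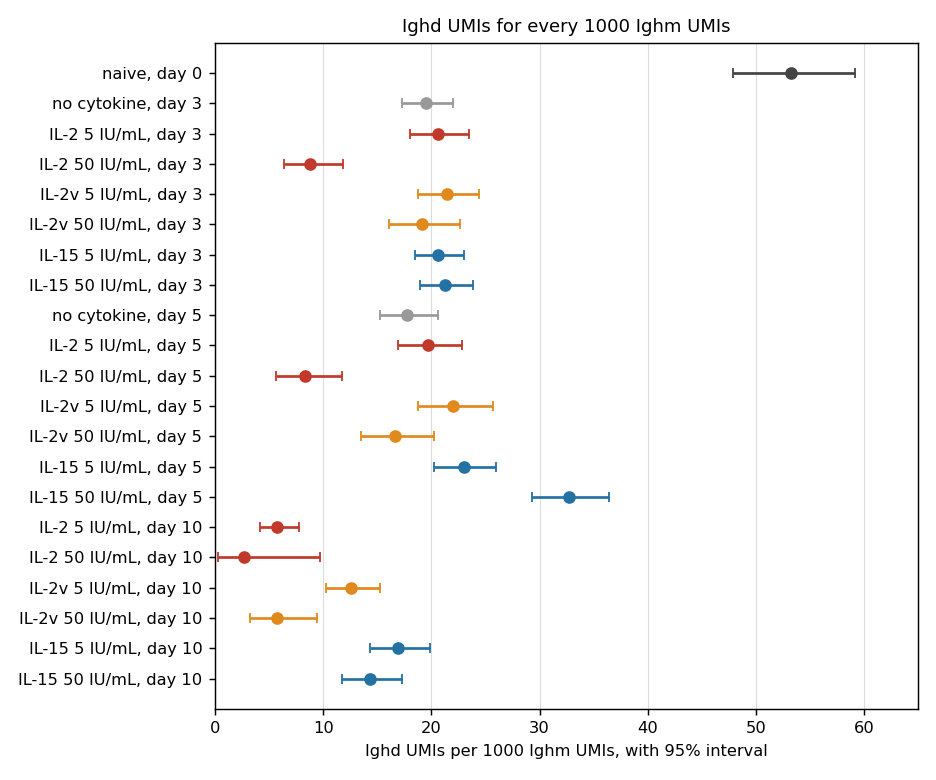
Ighd UMIs for every 1000 Ighm UMIs in each library, with the exact 95% interval of the ratio. The naive library lies at 53.3, most libraries of days 3 and 5 near 20, and the high-dose IL-2 libraries at 8.81, 8.32 and 2.67 on days 3, 5 and 10.

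A few other immunoglobulin partners had their own patterns. Jchain, which joins secreted IgM and IgA into polymers, had 874 UMIs and was highest, at 8.29 CPM, in low-dose IL-15 on day 3, the library with the most Ighm. Fcmr, the Fc receptor for IgM, had 0 UMIs in the naive library and 19.2, 8.88 and 18.1 CPM in high-dose IL-2 on days 3, 5 and 10. Low-dose IL-2 had 1.75, 0.0998 and 0.470 CPM of Fcmr on the same days. High-dose IL-2v had 8.26, 4.97 and 3.44 CPM and low-dose IL-2v 0.676, 0.488 and 0.490 CPM. On each of these days the high-dose libraries of both cytokines held more Fcmr and less Ighm than their low-dose partners. The IL-15 libraries had at most 0.708 CPM.

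Between libraries, differences are given as log2 of CPM plus 1, and a difference of at least 1 in size is a 2-fold difference. Their intervals are those of the ratio of CPM, without the added 1. Genes with at least 20 CPM in either library of a pair served as the background, and Ighm passed this in every pair because its lowest level was 27.4 CPM. Beads without cytokine on day 3 differed from naive cells by 0.77 (0.73 to 0.81), short of 2-fold, while 11.1% of the 6171 genes compared were 2-fold higher. From day 3 to day 5 without cytokine the difference was -0.71.

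Among the dose steps, those of IL-2 on days 3 and 10 were larger in Ighm than those of IL-2v and IL-15 on the same days. For IL-2, high against low dose gave -0.999 on day 3 (302.7 against 606.0 CPM, just short of 2-fold, where 1.98% of genes were 2-fold lower), -0.32 on day 5 and -3.21 (-3.37 to -3.15) on day 10. On day 10, 14.5% of the 5832 genes compared were 2-fold lower and 6.57% 2-fold higher at the high dose, the median gene differed by -0.30, and 0.411% of genes lay further down than Ighm. For IL-2v the dose differences were -0.77, -0.54 and -1.40 on days 3, 5 and 10, and on day 10 6.14% of genes were 2-fold lower at the high dose. Both cytokines had less Ighm at the high dose on each of the 3 days, as did 20.9% of genes for IL-2 and 15.8% for IL-2v.

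For IL-15 the dose differences were -0.12 on day 3, 0.23 on day 5 and -0.70 on day 10. None reached 2-fold, and their sign was not the same on each day.

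Cytokines at equal dose and day were compared next. At 50 IU/mL, IL-2v minus IL-2 was 0.04 (-0.01 to 0.10) on day 3, -0.39 on day 5 and 1.77 (1.69 to 1.93) on day 10, where 2.77% of genes were 2-fold higher with IL-2v. At 5 IU/mL it was -0.19, -0.17 and -0.05, and the last was 0.13 with TMM-scaled totals and 0.061 with totals without ribosomal protein and mitochondrial genes. So the mutant and the parent cytokine differed by 2-fold in Ighm in 1 of 6 pairs, at the high dose on day 10, when both were far below their low-dose libraries.

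IL-15 minus IL-2 at 50 IU/mL was 1.17 on day 3, with 2.24% of genes 2-fold higher, 0.33 on day 5 and 3.06 (3.00 to 3.22) on day 10, with 9.86% of genes 2-fold higher. At 5 IU/mL it was 0.29, -0.22 and 0.55. IL-2v minus IL-15 at 50 IU/mL was -1.12, with 1.14% of genes 2-fold lower, -0.72, and -1.29, with 5.19% of genes 2-fold lower, on days 3, 5 and 10. At 5 IU/mL it was -0.47, 0.05 and -0.60, and the value of day 5 was -0.15 and -0.076 with the same other totals. The 2-fold differences between cytokines were all at 50 IU/mL on days 3 and 10, and all on the side of less Ighm without IL-15, or with IL-2 rather than IL-2v. These comparisons share libraries, so they are not independent of each other.

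Against beads alone on day 3, which serve as the common control, high-dose IL-2 differed by -1.09 and high-dose IL-2v by -1.04, where 2.74% and 1.75% of genes were 2-fold lower. The other cytokine libraries of that day differed from the beads alone by -0.28 to 0.20. On day 5 no cytokine library differed from the beads alone by 2-fold, and the differences ran from -0.50 in high-dose IL-2v to 0.21 in high-dose IL-15.

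Over time Ighm was lower on day 10 than on day 3 in 6 of 6 cytokine and dose combinations, as were 28.1% of the genes compared. The log2 differences were -1.21 and -3.42 for low and high IL-2, -1.06 and -1.69 for low and high IL-2v, and -0.94 and -1.52 for low and high IL-15, with a median of -1.36. The median gene differed by -0.17, and 477 of 5977 genes (7.98%), Ighm among them, were lower in all 6 with a median of at least 2-fold. Between day 3 and day 5 the differences ran from -0.92 in low-dose IL-15 to 0.26 in high-dose IL-2, the only combination with more Ighm on day 5 (in cells without Mki67 or Top2a, high-dose IL-2v was also above 0, at 0.075 in place of -0.17). Between day 5 and day 10 they ran from -3.68 in high-dose IL-2 to -0.01 in low-dose IL-15, whose interval held 0. High-dose IL-2 and high-dose IL-2v (-1.52) were 2-fold lower, as were 19.4% of 5847 and 11.6% of 6147 genes in those pairs. The median gene there differed by -0.25 and -0.37. Without the high-dose IL-2 library of day 10 the median of the IL-2 dose difference was -0.66 in place of -0.999.

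Within libraries, cells were split by Tcf7, the factor that marks naive and stem-like T cells. After thinning to 2000 UMIs, Ighm was higher in cells with a Tcf7 UMI than in cells without in 19 of the 20 libraries that had at least 50 cells on both sides. The interval lay above 0 in 18 of them, the median log2 difference was 0.20, and 95.4% of the genes compared had a lower median. As a background, 1.02% of 5594 genes were higher in all 20 libraries, Ighm not among them. The difference was small beside those between libraries, but these sizes are unlike measures. A split by 1 captured UMI can leave cells that express Tcf7 in the class without, whereas library levels are sums over all cells.

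Among libraries with over 1000 cells on both sides, low-dose IL-2 on day 10 had the largest difference, with 349.2 CPM in 1774 cells with Tcf7 and 240.4 CPM in 4309 cells without (log2 difference 0.54, 0.44 to 0.64). High-dose IL-2v on day 10 had the largest value, 0.65 (0.23 to 1.05), from 173 cells with Tcf7. In naive cells the levels were 375.7 and 370.7 CPM, a difference of 0.02 (-0.08 to 0.12). High-dose IL-2 on day 3 was the exception in sign, with -0.02 (-0.25 to 0.20). High-dose IL-2 on day 10 had only 26 cells with a Tcf7 UMI and was not counted.

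Ighm was also read by the number of Tcf7 UMIs in the cell. In low-dose IL-2 on day 10 it was 240.4 CPM in cells with 0 Tcf7 UMIs, 323.5 CPM with 1, 394.6 CPM with 2 and 504.1 CPM with 3 or more. It increased at each step from 0 to 1 to 2 in 17 of 18 libraries with enough cells, the naive library being the exception. Naive cells had 370.7, 363.1, 369.3 and 444.3 CPM over the same 4 steps, so there the level differed only in the last. Where the class of 3 or more could be counted, it was above the class of 0 in 13 of 13 libraries, but the level increased at every step up to it in only 9 of these 13. In low-dose IL-2 on day 3, for example, it was 752.1 CPM with 2 and 707.3 CPM with 3 or more. No share over all genes was computed for these counts, and they use the same cells as the Tcf7 split above.

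Cycling cells, in which Mki67 or Top2a was captured, had slightly less Ighm than other cells. The median log2 difference was -0.13, from -0.43 (-0.65 to -0.21) in high-dose IL-15 on day 10, with 183.4 CPM in cycling and 246.9 CPM in other cells, to 0.09 in high-dose IL-2v on day 3. It was below 0 in 16 of 21 libraries, with the interval below 0 in 10 and above 0 in none. The median gene differed by 0.07, and 1.46% of 5819 genes were lower in all 21 libraries, Ighm not among them. A lower median than that of Ighm was found in 19.3% of these genes.

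Cells with a UMI of Gzmb, the cytotoxic protease granzyme B, had a median log2 difference of -0.10 in Ighm over 19 libraries. It was below 0 in 16, with the interval below 0 in 9. High-dose IL-2v on day 10 had the lowest value, -0.49 (-0.82 to -0.15), with 100.8 CPM in cells with and 141.9 CPM in cells without Gzmb. High-dose IL-2 on day 3 had the interval above 0, at 0.36 (0.14 to 0.59), with 315.2 CPM in cells with Gzmb and 245.9 CPM in the 368 cells without. As a background, 0.658% of 5624 genes were lower in all 19 libraries, Ighm not among them, and 17.8% had a lower median than Ighm.

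**Figure D4:**
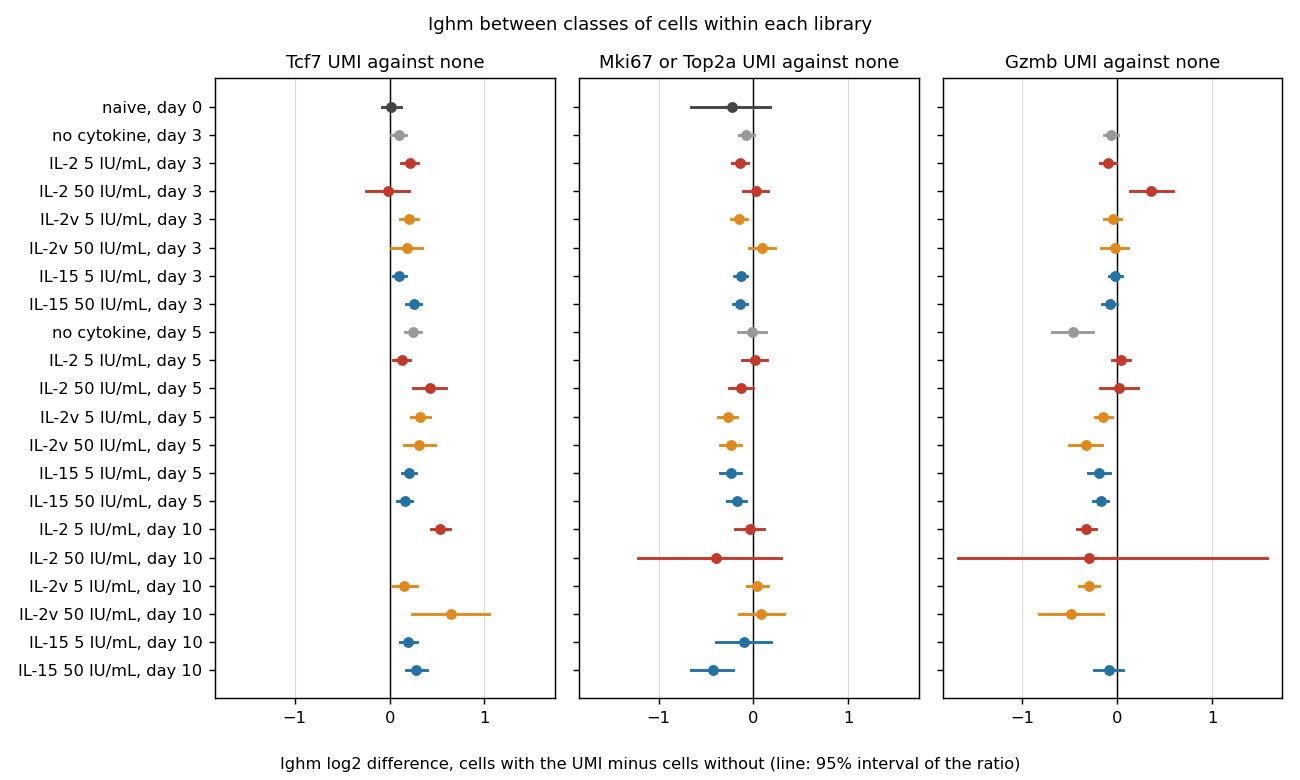
Log2 difference in Ighm within each library between cells with and without a UMI of Tcf7, of either cycling gene (Mki67, Top2a), and of Gzmb at 2000 UMIs per cell, with the 95% interval of the ratio; libraries with fewer than 50 cells on a side have no point. The Tcf7 points lie right of 0 in 19 of 20 libraries, the cycling and the Gzmb points mostly left of it.

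Cells were also split by Gzma, the gene of granzyme A, and by the chemokine gene Ccl5. Both had been picked out because they were low in cells with an Ighm UMI, so these splits show the same relation from the other side. With Gzma the median log2 difference in Ighm was -0.13. It was below 0 in 16 of 18 libraries, with the interval below 0 in 6 and above 0 in none. Of 5679 genes, 0.123% were lower in all 18, Ighm not among them, and 19.3% had a lower median than Ighm. The lowest value was that of low-dose IL-2 on day 10, where Ighm was 153.6 CPM in 1436 cells with Gzma and 308.8 CPM in 4647 cells without, with a log2 interval of -1.16 to -0.86. With Ccl5 the median was -0.10. It was below 0 in 17 of 21 libraries, with the interval below 0 in 9 and above 0 in 1. Of 5576 genes, 0.215% were lower in all 21, Ighm not among them, and 14.5% had a lower median than Ighm. The naive library had the lowest value, with 261.1 CPM in 450 cells with Ccl5 and 386.2 CPM in the others, -0.56 (-0.76 to -0.37). In naive cells the Ccl5 difference was larger than the Tcf7 difference. Since Ccl5 was picked for this relation, that comparison is not a like one.

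Libraries were then compared within classes of cells set by whether a UMI was captured. Such classes are not matched in level, since a cell without a captured Tcf7 UMI can still express Tcf7. On day 10 the whole low-dose and high-dose IL-2 libraries had 176.6 and 2.38 CPM of Tcf7 and 911.5 and 7617.5 CPM of Gzmb. The differences within a class are therefore not differences at equal Tcf7 or Gzmb. On day 10, in cells with Gzmb, without Tcf7 and not cycling, Ighm was 225.0 CPM in low-dose IL-2, 29.9 CPM in high-dose IL-2, 229.3 CPM in low-dose IL-2v, 98.3 CPM in high-dose IL-2v and 221.2 CPM in high-dose IL-15. The order of the whole libraries was therefore kept at the bottom, and the 3 others lay together. Low-dose IL-15 had only 20 cells with Gzmb and was not counted. The IL-2 dose difference of day 10 was -2.99 in cells without Tcf7, -3.47 in cycling cells, -3.11 in other cells, -2.98 in cells with Gzmb and -3.01 (-4.92 to -1.68) in the cells without, of which the high dose had 54. The whole libraries gave -3.21. In cells with Tcf7 it was smaller, -1.37 (-2.69 to -0.33), from 26 cells at the high dose, which is under the minimum of 50. For IL-2v it was -1.32 in cells without Tcf7 and -0.82 (-1.25 to -0.43) in cells with it, against -1.40 for the whole libraries. The smaller IL-2 dose difference of day 5, -0.32 in the whole libraries, was -0.37 in cells without Tcf7 and -0.08 (-0.26 to 0.10) in cells with it. On day 3 the IL-2 dose difference was larger in cells with Tcf7, -1.18 (298 cells at the high dose), than in cells without, -0.95. For IL-2v it was -0.82 with and -0.80 without Tcf7 on day 3, and -0.51 and -0.50 on day 5.

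For IL-15 on day 10 the dose difference was -0.60 in cells with Tcf7 and -0.69 in cells without. It was -1.02 (-1.38 to -0.66) in cycling cells, of which the low dose had 137, and -0.69 in other cells. On days 3 and 5 it was -0.01 and 0.22 in cells with Tcf7, and -0.16 and 0.27 in cells without. In low-dose IL-2v on day 10, cycling cells with Tcf7 had 254.8 CPM with Gzmb (104 cells) and 297.1 CPM without (170 cells). Those not cycling had 229.6 and 327.1 CPM, so in this library cycling cells with Tcf7 held Ighm within the counting error of the others. In low-dose IL-2v on day 5 they held less, with intervals that did not overlap. There, cycling cells with Tcf7 had 353.7 against 505.6 CPM in the others with Gzmb, and 396.7 against 558.0 CPM without Gzmb.

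Across libraries Ighm went with Tcf7, most closely within days 3 and 10. Naive cells had 471.4 CPM of Tcf7, the beads alone 255.8 CPM on day 3, high-dose IL-2 on day 3 50.5 CPM, high-dose IL-2v on day 10 17.1 CPM and high-dose IL-2 on day 10 2.38 CPM. Over the 21 libraries the correlation of log2 levels was 0.861 (Pearson) and 0.635 (Spearman). Without the 2 libraries farthest from the median of Tcf7, which were the high-dose IL-2 and IL-2v libraries of day 10, Pearson's value was 0.451. Much of the linear relation therefore rests on those libraries. Among the 6 cytokine libraries of 1 day, Spearman's value was 1 on day 3, 0.714 on day 5 and 0.943 on day 10. On day 5, Pearson's value was 0.851 with and 0.236 without the high-dose IL-2 and IL-2v libraries. Libraries of the same day share beads and time, and those of the same cytokine and dose may share a culture.

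**Figure D5:**
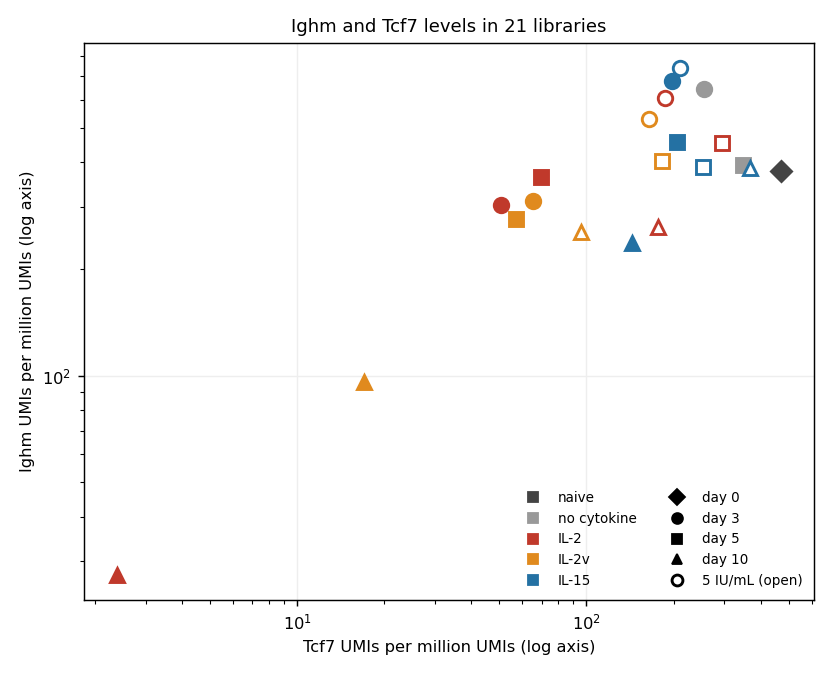
Ighm against Tcf7, both in CPM on log axes, for the 21 libraries; colour gives the cytokine, shape the day, and open symbols the 5 IU/mL dose. Within days 3 and 10 the libraries with more Tcf7 mostly have more Ighm, the naive library has the most Tcf7 at 471.4 with a middle level of Ighm at 377.2, and high-dose IL-2 on day 10 is lowest in both at 2.38 and 27.4.

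The relation to cycling and to Gzmb depended on how the libraries were grouped. With Mki67, Spearman's value was 0.247 over 21 libraries, but -0.714 on day 3, -0.714 on day 5 and -0.143 on day 10. With Gzmb it was -0.317 over all libraries and -0.829, -0.600 and -0.771 on days 3, 5 and 10. Without the 2 libraries farthest from the median of the other gene, the values of days 3, 5 and 10 were -0.400, -1 and 0.400 with Mki67 and -0.400, -0.800 and -0.200 with Gzmb. Without high-dose IL-2 alone, those of day 10 were -0.500 and -0.600. The values within days therefore rest on few libraries, and that of Mki67 on day 10 changed sign. Low-dose IL-15 on day 10 and the naive library, both with little Mki67 (1.33 and 15.2 CPM) and little Gzmb (2.23 and 6.50 CPM), had middle levels of Ighm.

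The genes whose levels followed Ighm most closely over the 21 libraries, among 5494 with at least 20 CPM on average, were Matk (Spearman 0.892), a kinase that acts on Src family kinases, 2310001H17Rik (0.892), the death receptor Fas (0.881), the adaptor Sla (0.881), which dampens T cell receptor signalling, and Ncf1 (0.879), a subunit of the phagocyte NADPH oxidase. The median gene had 0.0987, and 25 genes had at least 0.8. Matk ran from 2.79 CPM in high-dose IL-2 on day 10 to 106.7 CPM in low-dose IL-2 on day 3, and Sla from 9.61 CPM to 126.5 CPM between the libraries that were lowest and highest in Ighm. Tcf7 ranked 198. Ighd, which is too low to be ranked, had 0.858, and Cd79b 0.808.

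In the opposite direction the most extreme included Emc6 (-0.825), Mapkapk3 (-0.821), Atp2b1 (-0.809), a calcium pump of the plasma membrane, and Prf1 (-0.796), the pore-forming protein of cytotoxic granules. Prf1 was 5.80 CPM on beads alone on day 3 and 732.2 CPM in high-dose IL-2 on day 10. Id2, an inhibitor of E proteins, had -0.795. These rankings moved with the measure: of the 5 genes most like Ighm, 2 were also among the first 5 over the 18 cytokine libraries and 1 by Pearson's correlation of log2 levels.

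Cells with an Ighm UMI differed little from cells without in the same library. At 2000 UMIs per cell, 0.342% of 5559 genes were higher and 0.162% lower in all 21 libraries. With a median log2 difference of at least 0.5 as well, none was higher (0.0%) and 2 were lower (0.036%), Gzma (-0.85) and Cdkn1a (-0.50), which encodes the cell cycle inhibitor p21. Both were lower in 21 of 21 libraries. Thinned to 1000 UMIs, only Gzma met both conditions (-1.10, lower in 21 of 21), while Cdkn1a was at -0.37 and lower in 15. Without cells above 2 times the median depth neither did, with Gzma at -0.85 and Cdkn1a at -0.44, each lower in 20 of 21. High-dose IL-2 on day 10, with 253 Ighm-positive cells, had 18.1% of genes past 0.5 in size, against 0.264% to 4.69% in the other libraries.

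Smaller differences were counted by list and by the sign of their median over libraries, which was above 0 for 54.6% and below 0 for 45.3% of the 5559 genes. Of the 14 naive and stem-like genes, 13 had a higher median in Ighm-positive cells (median over the list 0.16, against 0.01 for all genes). Among them were Klf2 (0.32, 20 of 21 libraries), Slamf6 (0.31, 19 of 21), Tcf7 (0.28, 20 of 21), S1pr1 (0.25, 21 of 21) and Satb1 (0.15, 21 of 21). Of 8 effector genes compared, 7 were lower (median -0.34), among them Prf1 (-0.39, 19 of 21), Tnfrsf9 (-0.33, 21 of 21), which encodes 4-1BB, and Nkg7 (-0.14, 21 of 21). Of 34 cell cycle genes, 33 were lower (median -0.11), such as Cdk1 (-0.24, 20 of 21).

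Of the 12 T cell and CD8 genes, 9 had a higher and 3 a lower median, with a median over the list of 0.04. Of 17 heavy chain enhancer and promoter factors, 12 had a higher and 5 a lower median (0.05 over the list), and of 2 plasma cell genes 1 had each. Cd8b1 (0.12) and Trbc2 (0.07) were higher in 21 of 21 libraries and Cd8a (0.10) in 20, while Cd3d differed by 0.00 and Cd3e by -0.02. Ighd, which was under 20 CPM and so not among the genes compared, was 0.37 higher in Ighm-positive cells, in 19 of 21 libraries. This shows the split by Ighd given above from the other side. Also under 20 CPM, Cd79b was at 0.07 (higher in 12, lower in 9) and Jchain at 0.14 (higher in 13, lower in 4). Fcmr was at 0.00 (higher in 9, lower in 7). Arl5c (0.32) was higher in 21 of 21 libraries and Id2 (-0.46) lower in 21 of 21. Arl5c and Cdkn1a belong to no list, and Arl5c was picked out after its values were seen.

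Factors known to bind the heavy chain enhancers and promoters were read beside Ighm in the dose step where it differed most, that of IL-2 on day 10. Of 22 factors and regulators, 16 were abundant enough, of which 7 were 2-fold lower and 3 2-fold higher at the high dose, against 14.5% and 6.57% of all genes compared. Their median was -0.46, against -0.30 for all genes. Ets1, an enhancer-binding factor, was 50.4 against 196.3 CPM (-1.94), and its relative Elf1 60.2 against 181.6 CPM (-1.58).

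The E proteins Tcf3 (E2A) and Tcf12 (HEB) differed by -1.15 and -1.24, whereas Tcf4 (E2-2) was 30.3 against 6.65 CPM (2.03). Pou2f2, which encodes the octamer-binding factor Oct2, differed by -2.24 and Ikzf3, which encodes Aiolos, by -2.31. Id3, an inhibitor of E proteins, differed by -3.98 and Cebpb by 1.45, and Irf8 was 278.9 against 69.1 CPM. In the same pair 13 of 13 naive and stem-like genes compared and 25 of 27 cell cycle genes were 2-fold lower, against 14.5% of all genes, and 6 of 8 effector genes were 2-fold higher, against 6.57%. The factors thus differed in both directions in a pair in which many genes differed, and their part in the Ighm level was not tested. Fewer passed 2-fold in the other dose steps of day 10. In IL-2v, 2 of 16 were lower and 4 higher, against 6.14% and 5.02% of all genes, and in IL-15, 1 of 14 was 2-fold lower and none higher, against 2.37% and 3.33% of all genes.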

How the data were processed

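The deposited values are raw UMI counts per gene symbol and cell, 1 table for each of 21 libraries. Per the submitters' processing notes, Cell Ranger, Seurat 3.0.2 and 4.0.1 and the build mm10 were used; the capture end, counting settings and doublet treatment are not given in the sources used here. A cell was kept if it had 1000 UMIs and 500 genes or more and no more than 10% of UMIs from mitochondrial genes (106456 of 106458 barcodes); no doublet caller was run. Any 2 libraries shared at most 19 barcodes (0.340% of the smaller). Median depth was 3016 to 5065 UMIs per cell. UMIs were summed per library or class of at least 50 cells; intervals of a ratio are exact conditional binomial, without the pseudocount of 1 CPM. Python 3.11.15, scipy 1.17.1 and edgeR 4.0.16 (TMM factors only) were used. The 2-fold calls over matched pairs and the class contrasts were tested on simulated data, but the thinning and the spread were not. The genes named are Ighm, Tcf7, Mki67, Top2a, Gzmb, members of 11 lists, other immunoglobulin genes, and the 5 most and least like Ighm; items among these that are withheld are not reported here. The gene and the lists were chosen with earlier results of these data known. B cell, plasma cell, MHC class II, T cell, CD4, myeloid and erythroid lists served as markers. Over the libraries, the plasma cell list summed to 23.7 to 249.2 CPM (Xbp1 up to 196.0, Prdm1 47.8, Sdc1 1.19), MHC class II to 0.987 to 83.5 (H2-Ab1 up to 81.5), CD4 to 2.02 to 29.4 (Zbtb7b up to 28.9, Cd4 4.39), myeloid to 64.4 to 131.4 (Cst3 up to 126.0, Cd68 14.9, Lyz2 0.54), erythroid to 0 to 3.15 and T cell to 4669 to 10810.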

Additional observations from a re-analysis of the deposited data

Results flagged for a closer look

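Ighm differences that pointed in opposite directions under the same contrast were picked out where both counting intervals lay on their own side of 0. This gave 18 differences in 13 pairs. With 1 library per condition, whether the members of a pair differ was not tested.

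Between cytokines at 50 IU/mL, IL-2v minus IL-2 was -0.39 on day 5 and 1.77 on day 10, and at 5 IU/mL on day 10 it was -0.045. IL-15 minus IL-2 at 5 IU/mL was 0.29 on day 3, -0.22 on day 5 and 0.55 on day 10, and at 50 IU/mL on day 5 it was 0.33. IL-2v minus IL-15 at 5 IU/mL was -0.47 on day 3, 0.054 on day 5 and -0.60 on day 10, and at 50 IU/mL on day 5 it was -0.72. Of these, -0.045 became 0.13 with TMM-scaled totals and 0.061 with totals without ribosomal protein and mitochondrial genes, and 0.054 became -0.15 and -0.076, so both of these directions depend on the scaling.

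The IL-15 dose difference, high minus low, was -0.12 on day 3, 0.23 on day 5 and -0.70 on day 10. Day 5 minus day 3 was 0.26 in high-dose IL-2, against -0.42 in low-dose IL-2, -0.17 in high-dose IL-2v (0.075 in cells without Mki67 or Top2a) and -0.58 in high-dose IL-15. The high-dose IL-2 library of day 5 had the fewest UMIs, 10589950, and its Ighm rests on 3847 UMIs.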

How the results depend on the processing

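Replicates could not be paired or left out, because each condition has 1 library and the labels give no replicate numbers to block on. Libraries were matched by dose and day instead. Putting back the 2 failing barcodes moved no median difference beyond its counting interval. Neither did removing cells with B lineage or other foreign markers, or cells with a defining B lineage UMI. In cells without Mki67 or Top2a, the highest level was 798.0 CPM, and the medians were -0.055 for IL-2v minus IL-2, -0.58 for IL-2v minus IL-15, -1.16 and -0.96 for the dose of IL-2 and IL-2v, -0.47 for day 5 minus day 3 and -1.46 for day 10 minus day 3. With TMM-scaled totals, the highest and lowest levels were 692.8 and 33.3 CPM, IL-15 minus IL-2 was 0.51, IL-2v minus IL-15 -0.74, the IL-2v dose -0.88, day 5 minus day 3 -0.29, day 10 minus day 3 -1.17 and beads on day 3 minus naive 0.83. With totals without ribosomal protein and mitochondrial genes these were 1176 and 43.1 CPM, 0.61, -0.81, -0.82, -0.34, -1.26 and 0.71, and the IL-2 dose was -1.05. The mean of single-cell CPM gave 761.0 and 32.5 CPM.

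Leaving out days moved the medians most, with fewer pairs and with differences that themselves varied between days. Without day 3, the doses of IL-2, IL-2v and IL-15 were -1.77, -0.97 and -0.24. Without day 5, they were -2.10, -1.08 and -0.41, with IL-2v minus IL-2 at 0.00 (-0.00125), IL-15 minus IL-2 at 0.86 and IL-2v minus IL-15 at -0.86. Without day 10, they were -0.66, -0.65 and 0.055, the last a change of sign, with -0.18, 0.31 and -0.60 between cytokines. Without the high-dose IL-2 library of day 10, chosen after seeing the data, IL-2v minus IL-2 was -0.17, IL-15 minus IL-2 0.33, the IL-2 dose -0.66, day 10 minus day 5 -0.79 and day 10 minus day 3 -1.21. The IL-2 dose difference of day 10 itself ran from -3.24 to -2.86 over the settings tried.

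Thinned to 1000 UMIs, the median share of cells was 31.2% and the variance over mean 1.12, and 1 gene in place of 2 was consistently lower in Ighm-positive cells; unthinned, the share was 71.9%. Without cells above 2 times the median UMIs, that count was 0, with Gzma at -0.85 and Cdkn1a at -0.44. Splitting by at least 2 Tcf7 UMIs gave 0.34 in place of 0.20, higher in 18 of 18 libraries. Thinned to 1000 UMIs, Ighm was higher with Tcf7 in 18 of 20 libraries in place of 19, the interval was above 0 in 14 in place of 18, and it was below 0 for cycling cells in 7 in place of 10 and for Gzmb in 5 in place of 9. By day (3, 5 and 10), Spearman's correlation with Mki67 was -0.714, -0.714 and -0.143, against 0.247 over all libraries; with Tcf7 it was 1 on day 3 and 0.943 on day 10, and with Gzmb -0.829 and -0.771. Of the 5 genes most like Ighm, 2 were shared over the 18 cytokine libraries and 1 by Pearson; of the 5 least like it, 3 and 1. With no expression filter, 1667 in place of 847 genes were 2-fold lower in the IL-2 dose step of day 10. The precision of the lowest library rests on 748 Ighm UMIs. Of 46 single differences, 0 to 3 changed sign in a setting, the largest of them 0.17 in size.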
